A study of Mus musculus with 9 samples.

Results

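The array used here carries 60-base probes without a gene name: their name field only repeats the probe's own identifier, but the scanner files give a chromosome and positions for them. Of 55681 non-control probes, 5270 (9.46%) are of this kind and were taken as members, and another 370 unnamed probes have no position. They were compared between muscle stem cells (satellite cells) of wild type (WT) and Bmi1-deficient (KO) mice, all males of FVB background aged 2 months, taken in homeostasis. The sort took integrin a7+ CD34+ cells without the surface proteins CD31, CD45, CD11b or Sca1. Whole transcriptome amplification preceded labelling with Cy3. The labels name no allele, promoter or Cre for the KO. The 9 arrays were 3 of WT and 6 of KO. Titles call all 6 KO arrays biological replicates, but their descriptions share first numbers pairwise and arrays that share one were nearly identical, so such arrays were averaged, which gives 3 WT and 3 KO samples.

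The Bmi1 protein belongs to Polycomb repressive complex 1, which binds chromatin over broad regions and keeps developmental regulators and the Cdkn2a locus silent. Because a Polycomb domain can cover several transcription units, a gene and the unannotated transcripts beside it can share a chromatin state. Such transcripts include extended ends of messenger RNAs, antisense RNAs, divergent transcripts from a promoter and long noncoding RNAs. An unnamed probe can read any of these, or an unrelated transcript with the same sequence, such as the parent gene of a processed pseudogene.

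The sequences below are those of the members on which the results turn. The first 5 are the 3 members that passed the test of difference and the members closest to Foxf1 and to Bmi1 itself. Positions are in mm9, the build named in the file headers, and none of these 5 holds the polyadenylation hexamer AATAAA.
A_66_P120612, chr6:83652173-83652232, minus strand: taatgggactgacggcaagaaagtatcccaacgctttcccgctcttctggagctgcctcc
A_55_P2315762, chr2:73113287-73113346, minus strand: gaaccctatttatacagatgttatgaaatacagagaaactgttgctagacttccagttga
A_51_P494293, chr1:57031318-57031377, plus strand: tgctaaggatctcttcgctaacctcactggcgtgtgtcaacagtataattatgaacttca
A_55_P2059765, chr8:123611944-123612003, plus strand: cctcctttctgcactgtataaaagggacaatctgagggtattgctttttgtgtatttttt
A_55_P2023627, chr2:18609143-18609202, minus strand: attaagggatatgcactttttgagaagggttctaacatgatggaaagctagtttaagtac

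Another 2 members carry the hexamer, here in capitals, which marks the end of many messenger RNAs. AATAAA was found in 608 members (11.5%), in 13.3% of the probes with a gene symbol and in 3.94% of the probes named only by a genomic interval. Its reverse complement TTTATT was found in 3.47%, 4.21% and 3.01%. A match of these letters is a description and not a site in use.
A_55_P2028986, chr2:158136176-158136235, plus strand: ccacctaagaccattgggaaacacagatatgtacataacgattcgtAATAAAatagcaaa
A_55_P2297815, chr6:42331153-42331212, plus strand: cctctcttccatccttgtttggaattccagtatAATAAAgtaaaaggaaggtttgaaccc

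A further 4 members repeat the sequence of a named gene that lies elsewhere, and the capitals mark the bases identical to the probe of that gene. The gene is Nid1 for the first, Ldhb for the second, Pbk for the third and Hmgb2 for the fourth.
A_55_P2002460, chr13:12794813-12794872, plus strand: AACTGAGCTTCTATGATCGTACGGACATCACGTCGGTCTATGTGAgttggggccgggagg
A_55_P2086835, chr19:22013003-22013062, plus strand: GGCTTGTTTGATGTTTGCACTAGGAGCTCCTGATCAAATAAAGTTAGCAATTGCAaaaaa
A_55_P2024391, chr4:39842177-39842236, minus strand: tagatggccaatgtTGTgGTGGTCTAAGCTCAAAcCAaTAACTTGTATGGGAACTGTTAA
A_55_P2071846, chr10:25552816-25552875, minus strand: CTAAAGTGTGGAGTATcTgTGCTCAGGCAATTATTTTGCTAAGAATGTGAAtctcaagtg

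Signal is given as log2 of the processed intensity minus the 75th percentile of the array, and a difference is the KO mean minus the WT mean on that scale. Between 64.1% and 68.6% of unnamed spots were well above background per array, as compared to 71.9% to 75.8% of all non-control spots. Values near -8 are the scanner software's replacement for signals at background. A probe was measured when well above background on at least 3 of the 9 arrays, which held for 3695 members (70.1%) and for 78.1% of the located named probes. Since 6 of the arrays are KO, the filter favours probes bright in KO alone. The KO arrays of a sample correlated with an r of 0.9944 to 0.9956 over probes and the other 33 pairs of arrays with 0.9622 to 0.9786. KO replicate 1 has wild type in its genotype field but KO in its title, source and description. Of the 2 slides, the first held 2 WT and 3 KO arrays and the second 1 WT and 3 KO arrays. The labels tie no sample to an animal, so the p-values cover the spread among these samples, which may be technical.

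In this sorted population, fewer cells of a type and less RNA per cell cannot be told apart. Muscle stem cell and muscle genes were measured for 54 of 56 (summed as a mean level, 1.15 to 1.31 in WT and 1.38 to 1.46 in KO). All 17 measured endothelial markers of 20 were higher in KO (mean level -3.71 to -2.98 in WT, -3.29 to -1.51 in KO). Of 22 mesenchymal and mural markers, 19 were higher (0.367 to 0.923 in WT, 1.28 to 1.61 in KO), as were 10 of 13 measured glial markers (0.114 to 0.256 in WT, 0.610 to 0.861 in KO). Myeloid and lymphoid markers did not share this direction: of 16 measured, 6 were higher and 10 lower (-3.38 to -2.90 in WT, -3.67 to -2.74 in KO). All 69 mitosis and replication genes were lower (0.862 to 1.16 in WT, -0.415 to 0.623 in KO). The part of these shifts in the differences of unnamed probes was not tested.

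As a group, the unnamed probes hardly moved between WT and KO, and 3 of them passed the test, all upward. Of these 3, only A_66_P120612 was well above background in both groups. The median difference of the 3695 measured members was -0.03 (SD over probes 0.49), beside -0.01 for the named probes, and 94.3% of members lay within 1 log2 unit of no difference. Per KO sample against the WT mean, the median was -0.01, -0.11 and 0.04, so the group median was smaller than the spread between samples. The lowest difference was -2.73 and the highest 5.47.

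The 3 members that passed the limma test at an adjusted p under 0.05 compare with 21 of 42981 probes over the whole array (0.0489%). At an unadjusted p under 0.05, 171 members were higher in KO (4.63% of those measured, 6.49% over all probes) and 143 lower (3.87%, 4.18% over all probes). Groups did not overlap, with KO above WT, for 223 members (6.04%, 8.59% over all probes) and with KO below WT for 277 (7.50%, 7.94% over all probes). By unadjusted p and by overlap, the members' shares lay below those of the array. By calls, 3 of 3695 is a larger share than that of the array, but it rests on 3 probes. The share was lower than for named genes at matched signal too, a difference that was not tested: in the highest of 4 equal bins of signal over all measured probes, 4.24% of 873 members and 8.19% of 7134 gene probes had an unadjusted p under 0.05. In the lowest bin the shares were 10.8% of 1111 members and 12.8% of 4312 gene probes. Probes named only by an interval did not show this at low signal. Their shares were 9.89% in the lowest bin and 9.45% in the next, beside 10.8% and 9.92% of members. In the bins above they were 11.4% and 8.66%, beside 8.19% and 4.24% of members. None of the members was well above background on every WT array and on no KO array, whereas 10 were well above background on every KO array and on no WT array. For probes with a gene symbol these counts were 6 and 49 of 28653.

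A_66_P120612 showed the largest difference of any member. Its level was -4.87, -6.41 and -4.77 in WT and 0.19, -0.09 and 0.27 in KO samples 1 to 3. All KO samples lay far above all WT samples, and 2 of 3 WT arrays and all KO arrays were well above background. The difference was 5.47 (SE 0.46, limma adjusted p = 0.0441), a 44.3-fold rise on this scale.
The genes around it did not share this rise. The nearest named probe belongs to Cd207, the C-type lectin langerin of Langerhans cells, 30.7 kb away on the same strand, and was well above background on 1 of 9 arrays. On the other side lay Vax2, a homeobox factor of the ventral eye, at 36.0 kb with a difference of 0.10 (SE 0.17). Atp6v1b1, a subunit of the vacuolar proton pump, gave 0.08 (SE 0.31) at 54.6 kb, and Clec4f, another C-type lectin, 0.02 (SE 0.72) at 56.8 kb. These flanking genes were looked up after the value of the member was seen. The limma adjusted p of the member was 0.0511 after quantile normalization and 0.0631 with no filter. It was 0.00105 after normexp background correction, where the difference was 3.66, 0.0181 with the slide as a block and 0.21 with the replicate number as a block.

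A_55_P2315762 lies 66 bases from a probe of Sp9, a zinc finger factor of limb and forebrain development, on the opposite strand. Its level was -7.87, -8.28 and -7.95 in WT and -5.57, -5.42 and -5.43 in KO. No WT array and 5 of 6 KO arrays were well above background, so the fitted difference of 2.56 (SE 0.16, limma adjusted p = 0.0207) rests on replaced WT values, and KO was at least 1.36-fold higher. The bound sets the KO mean against the lowest signal well above background on each WT array. The Sp9 probe was well above background on none of the 9 arrays. Cir1, a transcriptional corepressor 8.81 kb away on the other side, differed by -0.04 (SE 0.22).

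A_51_P494293 lies 4.02 kb from the predicted gene Gm4081, whose probe was not well above background on any array. The level of the member was -7.89, -8.23 and -7.94 in WT and -5.99, -5.85 and -5.62 in KO, and 3 of 6 KO arrays were well above background. The fitted difference was 2.21 (SE 0.17, limma adjusted p = 0.0316) and the bound at least 1.07-fold. Both this member and the one at Sp9 passed the filter only through KO arrays, and their SE and p rest on replaced WT values that vary little, so these calls do not support a rise. Both were lost after normexp correction, where the differences were 0.44 at Sp9 and 0.28 at Gm4081 (limma adjusted p = 0.189 and 0.491). They were also lost with the slide as a block (limma adjusted p = 0.065 and 0.0815).
All 3 calls also depended on the full set of samples. Leaving out any 1 WT sample left none of them, without KO sample 2 or KO sample 3 none were called either, and without KO sample 1 the single called member was another one, A_55_P2234231 near Irx2. That member too was well above background on no WT array. With KO replicate 1 alone left out there were 3 calls, and with all 9 arrays taken as separate samples there were 109. Within slide 1 none passed, and the differences there were 5.03, 2.41 and 2.15, in the order in which the members are described; within slide 2 they were 6.44, 2.83 and 2.37, with no test.

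**Figure D1:**
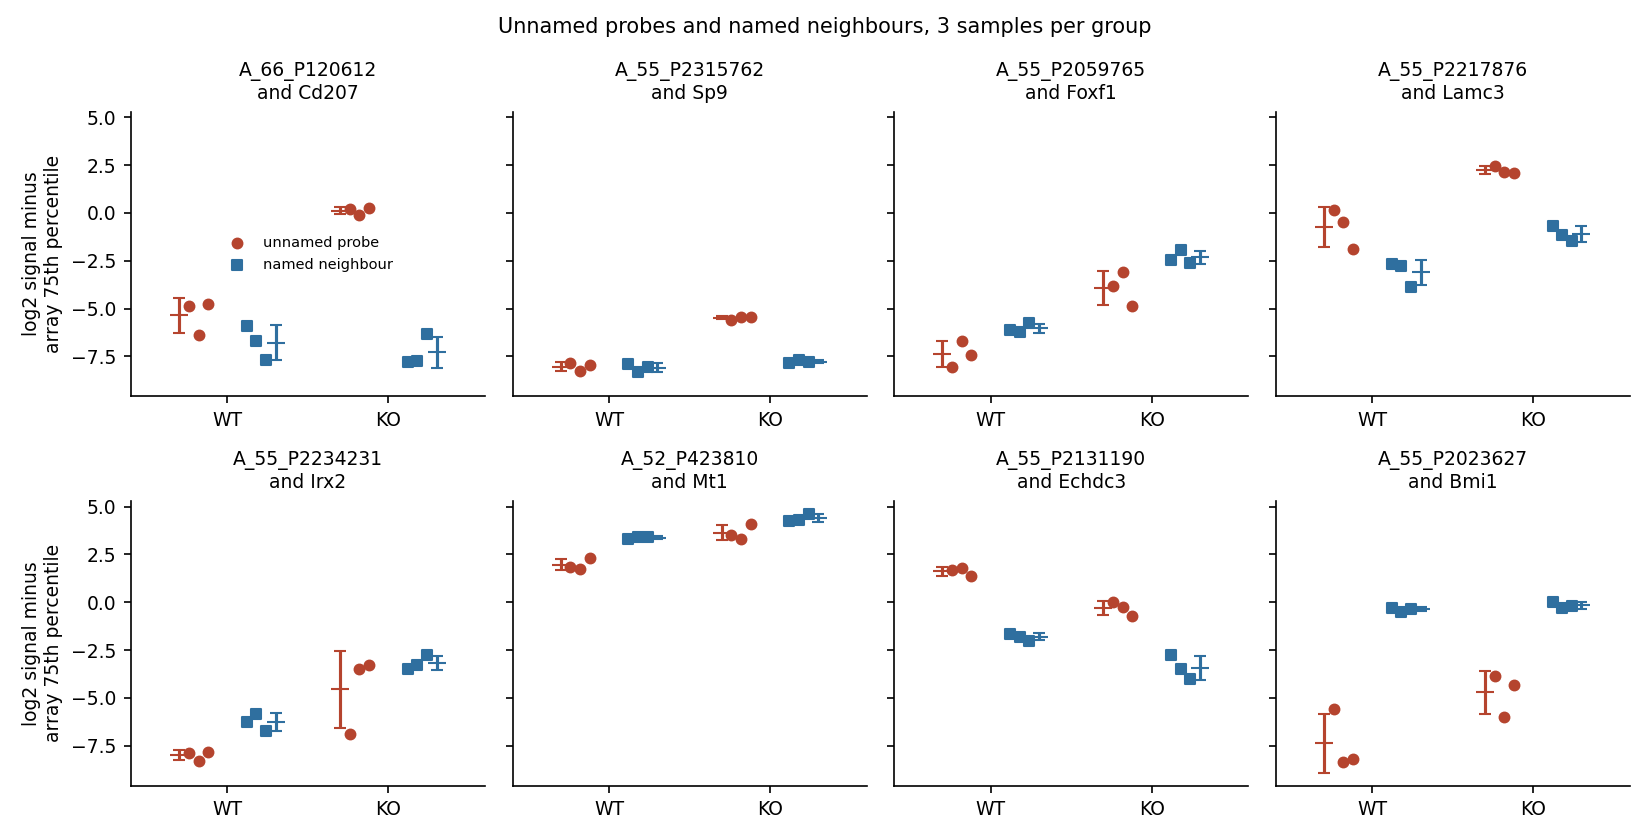
Level of 8 unnamed probes (circles) and of a named probe near each (squares) in 3 WT and 3 KO samples, as log2 signal minus the array's 75th percentile; bars give the mean and SD beside the points. A_66_P120612 and A_55_P2315762 were higher in every KO sample while their neighbours stayed near background, the probes at Foxf1, Lamc3, Irx2 and Mt1 were higher together with their genes, the probe at Echdc3 was lower with its gene, and the Bmi1 neighbour varied within both groups. Heights of different probes are not comparable.

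Among members that did not pass the test, the 5 with the smallest p in the upward direction lay near genes of secreted proteins, receptors and a mitochondrial protein. A_55_P2028986 had -3.95, -4.07 and -4.07 in WT and -2.62, -2.83 and -2.75 in KO, without overlap (difference 1.29, SE 0.13, limma adjusted p = 0.0617). It lies 17.9 kb from Lbp, the lipopolysaccharide-binding protein, on the same strand, whose own difference was 1.15 (SE 0.18).
A_55_P2046709 had -3.97, -4.37 and -3.75 in WT and -1.96, -1.46 and -1.90 in KO (2.26, SE 0.23, limma adjusted p = 0.0624). It lies among the alpha-1 antitrypsin genes, 35.8 kb from Serpina1a (1.94, SE 0.21), and 53 of its bases are identical to a probe of Serpina1c (2.55), so these paralogs cannot be told apart.
A_55_P1963206 lies between probes of Chchd7, which codes for a small mitochondrial protein, on the same strand. It had -2.08, -1.96 and -1.97 in WT and -0.80, -1.02 and -0.84 in KO (1.12, SE 0.13, limma adjusted p = 0.0748), and the Chchd7 probe 1.79 kb away differed by 0.90 (SE 0.28).

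A_55_P2044453 lies 44.2 kb from Pdgfra, a receptor that marks mesenchymal progenitors of muscle, on the opposite strand. It had -6.55, -6.00 and -6.44 in WT and -4.60, -4.91 and -4.58 in KO, with no WT array well above background, and KO was at least 2.28-fold higher (limma adjusted p = 0.0830). With the deposited table of processed values the difference of the member was below that bound, so the bound holds on this scale only. Pdgfra itself differed by 2.93 (SE 0.47) and was also not well above background in WT. Here too mesenchymal markers moved in the same direction, as given above.
A_55_P2297815 was well above background on every KO array and on no WT array. It had -7.97, -8.27 and -8.16 in WT and -4.71, -5.59 and -5.64 in KO, at least 1.52-fold (limma adjusted p = 0.0617). Its p rests on replaced WT values that vary little, so it does not support a rise. Tas2r143, a bitter taste receptor 19.8 kb away on the same strand, differed by 0.25 (SE 0.17).

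In the downward direction, the 5 members with the smallest p did not pass the test either. A_55_P2131190 had 1.67, 1.80 and 1.36 in WT and 0.03, -0.28 and -0.70 in KO (-1.93, SE 0.23, limma adjusted p = 0.0830). It lies 17.0 kb from Echdc3, an enzyme related to enoyl-CoA hydratases, on the same strand, with a difference of -1.61 (SE 0.32).
A_55_P2078900 had the lowest difference of all members, from -1.71, -2.34 and -0.97 in WT to -4.63, -4.66 and -3.92 in KO (-2.73, SE 0.39, limma adjusted p = 0.106). Its nearest named probe, of 2310081J21Rik, is 59.4 kb away on the opposite strand and differed by -1.93 (SE 0.35). A_55_P2060163 lies between probes of Rbl1, the pocket protein p107 that restrains E2F factors, on the opposite strand, and differed by -1.15 (SE 0.17), with -0.63 (SE 0.33) for Rbl1.
The other members of this set were A_55_P2015122 (-1.27, SE 0.19) and A_55_P2340101 (-0.89, SE 0.15). Their nearest named probes, of Pramel14 at 35.7 kb and Efcab7 at 19.5 kb, were not well above background on any array. The members could therefore not be set against a neighbour.

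No chromosome stood apart. The members per chromosome ranged from 139 on chromosome 19 to 368 on chromosome 7, and the share measured from 58.0% on chromosome 6 to 79.8% on chromosome 11. The median difference lay between -0.07 on chromosome 8 and 0.00 on chromosome 1, and was below 0 on 18 of the 20 chromosomes from 1 to 19 and X. The named probes of the same chromosomes had medians between -0.04 and 0.03. Over the 20 chromosomes, the medians of members and of named probes correlated with an r of 0.40, given as a description of points that share all libraries. On each of the 20 chromosomes the median of KO sample 2 against the WT mean was the lowest of the 3 KO samples, between -0.16 and -0.06, and this spread between KO samples exceeded that between chromosomes. The share of members with an unadjusted p under 0.05 ran from 6.03% on chromosome 3 to 12.1% on chromosome 16. The called members lay on chromosomes 1, 2 and 6. Members assigned to the Y chromosome, the mitochondrial genome or unplaced sequence, of which 53 were measured, are included in the counts only.

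**Figure D2:**
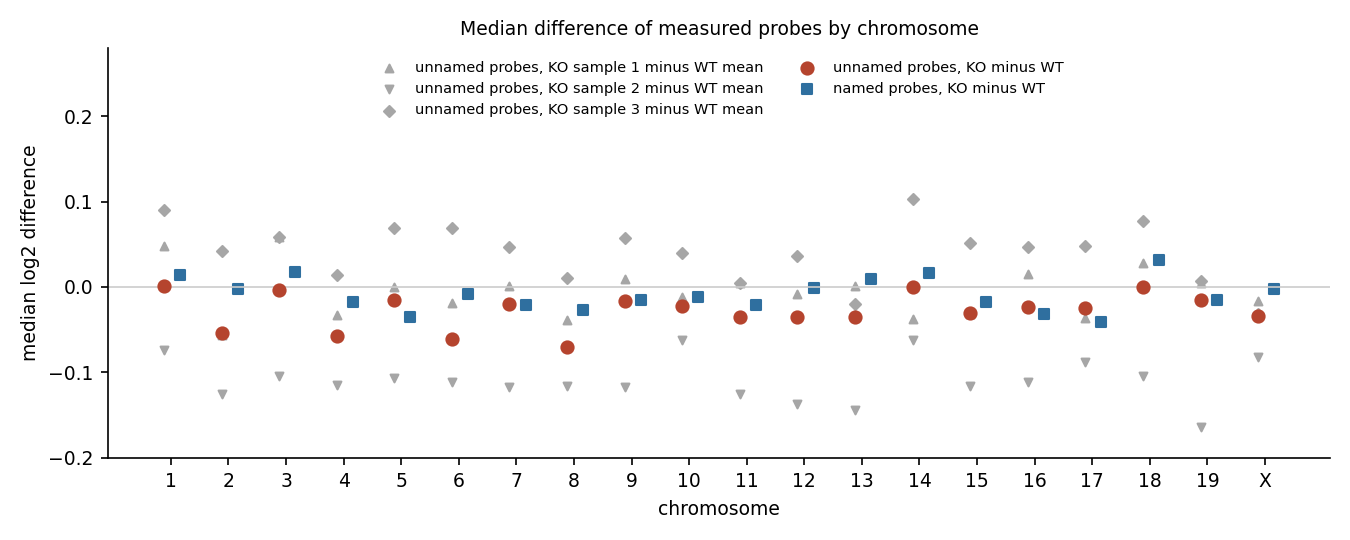
Median KO minus WT log2 difference of measured unnamed probes (large circles) and named probes (squares) by chromosome; small grey symbols give the unnamed probes of each KO sample minus the WT mean. The medians of unnamed probes lie between -0.07 and 0.00, inside the range of the KO samples on each chromosome.

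Distances to a named probe were short. The median distance from a member to its nearest named probe was 15.96 kb (quartiles 3.83 and 53.2 kb). Of the members, 627 lay under 1 kb from it, 1522 at 1 to 10 kb, 2328 at 10 to 100 kb and 793 farther away. The nearest named probe was one named only by an interval for 555 members. Between probes of a gene, and so inside its transcribed span, lay 170 members on the strand of that gene and 77 on the opposite strand. Which strand the labelling keeps was not stated, so strand here describes the design of the probes and not the RNA.

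Unnamed probes and their nearest named probes moved together, and more so the closer they lay. For the 2979 pairs measured on both sides, with 2663 different named probes, the Pearson r of the KO minus WT differences was 0.334 (Spearman rho 0.284) and 59.4% of pairs had the same direction. Under 1 kb, the 449 pairs gave an r of 0.466 (rho 0.510) and 71.0%. At 1 to 10 kb, 958 pairs gave 0.379 (rho 0.340) and 62.4%. At 10 to 100 kb, 1273 pairs gave 0.281 (rho 0.189) and 54.5%, and beyond 100 kb 299 pairs gave 0.230 (rho 0.171) and 53.2%. Pairs are not independent, since all share the same 6 samples and some share a neighbour. Against single KO samples the r of all pairs was 0.300, 0.208 and 0.301.

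The pairs also varied together between replicates of a group. With each group's mean removed, the r was 0.338 under 1 kb, 0.142 at 1 to 10 kb, 0.100 at 10 to 100 kb and 0.107 beyond 100 kb. Part of the relation was thus present without any difference between WT and KO. Under 1 kb, 71.5% of 312 pairs on the same strand and 70.1% of 137 pairs on opposite strands had the same direction. In these pairs r was 0.407 on the same strand and 0.583 on opposite strands (within groups 0.368 and 0.267), a difference that was not tested. For 97 overlapping pairs r was 0.806 (0.705 within groups), and of 84 members that overlapped a named probe by 20 bases or more on the same strand, measured or not, 75 shared at least 15 bases with it.

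Named genes gave the reference for these values. For probes with a gene symbol and the nearest probe of another name, r was 0.373 and the share 62.8% under 1 kb (2127 pairs), and 0.192 and 55.2% at 1 to 10 kb (6805 pairs). Most of these close pairs, 1675 of 2127, lie on opposite strands, while most pairs of unnamed probes lie on the same strand. On the same strand under 1 kb the gene pairs had an r of 0.433 and a share of 72.3% (452 pairs), beside 0.407 and 71.5% for the unnamed probes. At 1 to 10 kb on the same strand the values were 0.249 and 56.8% for genes and 0.440 and 62.3% for unnamed probes. No test was made of these differences.

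**Figure D3:**
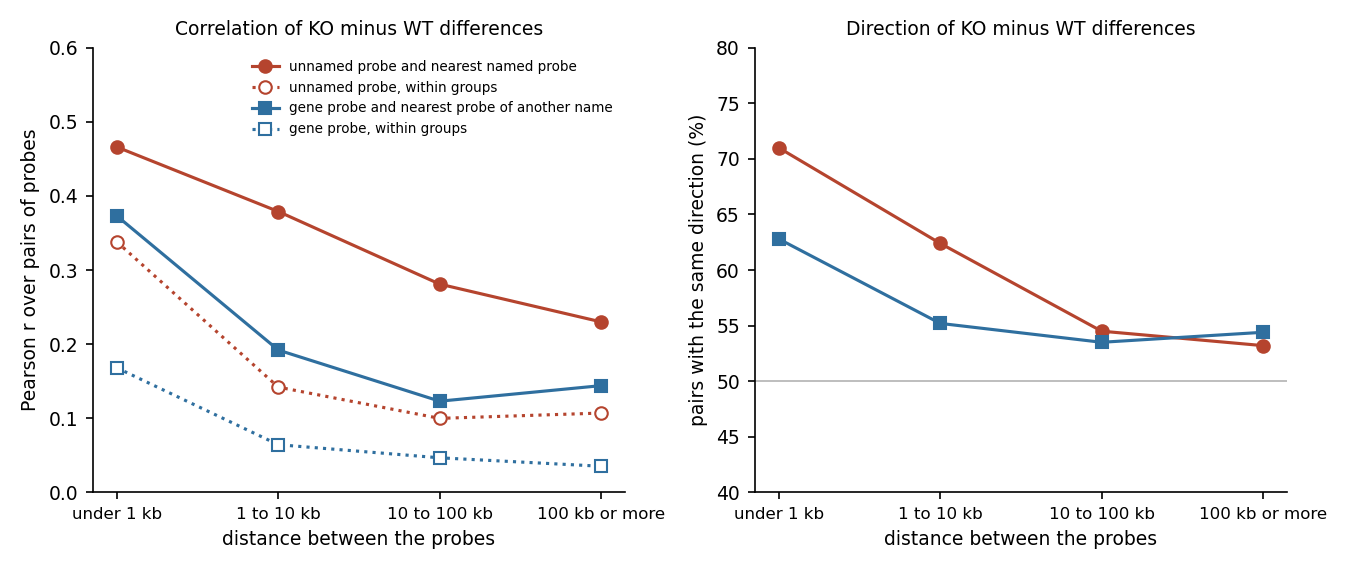
Pearson r of KO minus WT differences (left) and share of pairs with the same direction (right) by the distance between 2 probes, for unnamed probes with their nearest named probe (circles) and for gene probes with the nearest probe of another name (squares); open symbols give r after each group's mean is removed. For unnamed probes r falls from 0.466 under 1 kb to 0.230 beyond 100 kb and the share from 71.0% to 53.2%.

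Where both probe and neighbour differed, they differed in the same direction at short range. Under 10 kb, 35 pairs had an unadjusted p under 0.05 on both sides, and all 35 had the same direction. Some of their members, such as those near Foxf1, Clec9a and Irx2, were well above background on no WT array. They passed the filter through KO arrays alone, so a lower value in KO was hardly possible for them. The count without such members was not made. Among members under 10 kb with an unadjusted p under 0.05, 28.7% of neighbours had one too, as compared to 11.4% of all neighbours at that distance. For gene probes and the nearest probe of another name under 10 kb, 150 of 177 such pairs had the same direction, and the shares of neighbours were 18.7% and 10.2%. Only 5 of the 76 such pairs at any distance were opposite, and their distances were 12.9 to 132 kb. They are named here after their values were seen: the members near Pigz, Marveld1, Kctd12 and ENSMUST00000097412 were lower (-0.48, -1.12, -0.31 and -1.49) beside higher neighbours, and the one near Adck1 was higher (0.92). The lowest limma adjusted p of these 5 members was 0.404.

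**Figure D4:**
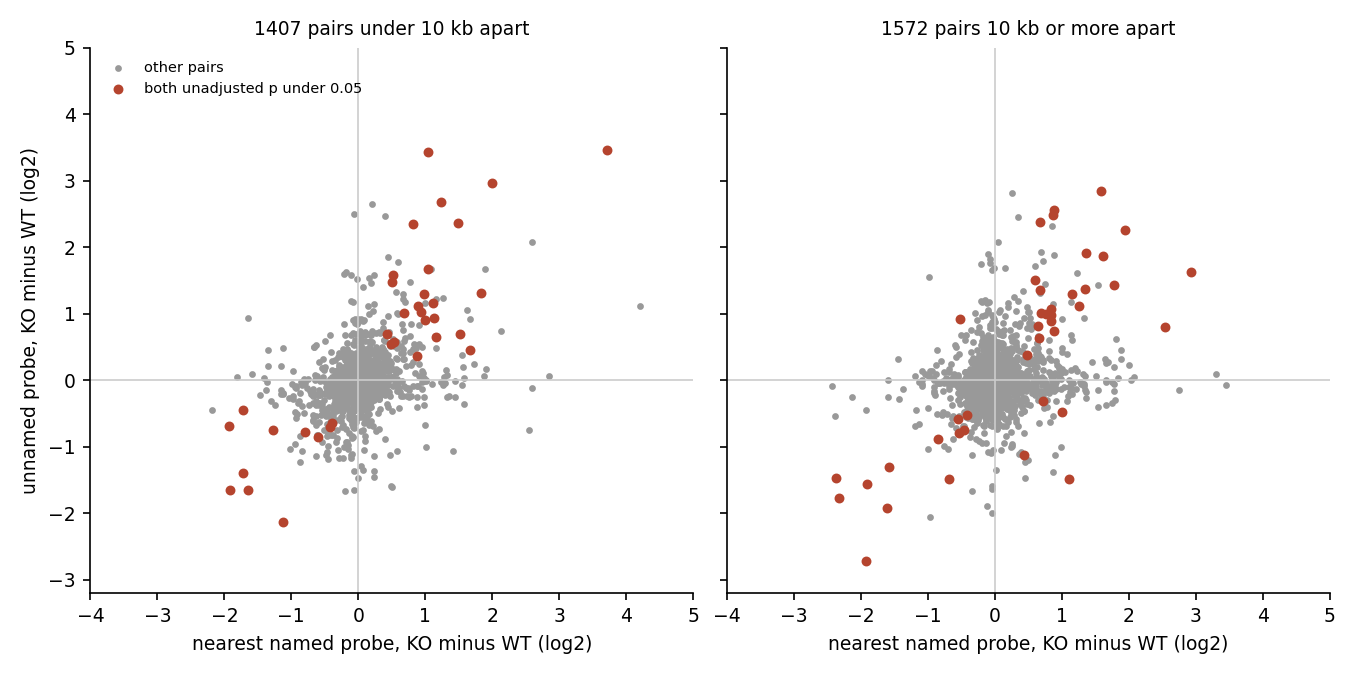
KO minus WT log2 difference of each unnamed probe against that of its nearest named probe, for 1407 pairs under 10 kb apart (left) and 1572 pairs farther apart (right); large red points have an unadjusted p under 0.05 on both sides. All 35 red points on the left lie in the quadrants of equal direction, and 5 on the right do not.

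The close pair ranked first by the smaller of its 2 fitted differences was at Foxf1, a forkhead factor of lung, gut and limb mesenchyme. Its probe had -6.13, -6.23 and -5.76 in WT and -2.47, -1.92 and -2.60 in KO (3.71, SE 0.23, limma adjusted p = 0.0207), with 1 of 3 WT and all KO arrays well above background. A_55_P2059765, 1.20 kb away on the same strand, had -8.03, -6.69 and -7.43 in WT and -3.82, -3.08 and -4.88 in KO, without overlap. It was well above background on every KO array and no WT array, so KO was at least 3.97-fold higher; the fitted difference was 3.46 (SE 0.54, limma adjusted p = 0.117). With the deposited table of processed values the difference of the member was 1.08, which is below that bound.
A member near a homeobox gene was also higher in every KO sample, but less evenly, and was chosen after its values were seen. A_55_P2234231 lies 7.76 kb from Irx2, an Iroquois factor, on the opposite strand, and had -7.88, -8.28 and -7.81 in WT and -6.90, -3.48 and -3.29 in KO. KO sample 1 was well below the other KO samples, the bound was at least 2.56-fold (limma adjusted p = 0.295), and Irx2 had all KO samples above all WT samples (limma adjusted p = 0.0617). The difference of this member, too, was below its bound with the deposited table. Without KO sample 1 the difference of the member was 4.60 (limma adjusted p = 0.0458). No WT array and 4 of 6 KO arrays were well above background for this member. Its SE and p therefore rest on replaced WT values, and this call does not support a rise.

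The other pairs in which both were higher in KO lay at genes of different kinds. A_55_P2217876, 1.74 kb from Lamc3, the laminin gamma-3 chain, on the same strand, had 0.14, -0.48 and -1.87 in WT and 2.47, 2.14 and 2.08 in KO (2.97, SE 0.51, limma adjusted p = 0.134), beside 1.99 (SE 0.38) for Lamc3. A_55_P2234704, 9.60 kb from Sgcd, the delta-sarcoglycan of the dystrophin complex, had -4.29, -4.50 and -4.55 in WT and -2.97, -3.37 and -3.05 in KO (1.32, SE 0.16, limma adjusted p = 0.0830), beside 1.83 (SE 0.45). In both pairs all KO samples were above all WT samples.
A_55_P2053302, 2.83 kb from Clec9a, a lectin of dendritic cells, was not well above background in WT and at least 1.88-fold higher in KO, beside 1.49 (SE 0.23) for Clec9a. A_55_P1963198, the second member inside Chchd7, differed by 2.69 (SE 0.56) at 0.402 kb from a Chchd7 probe with 1.23 (SE 0.17). A_55_P2116650 on chromosome X had 1.16 (SE 0.17) beside 1.11 (SE 0.23) for the transcript AK132033, while Alg13, a glycosyltransferase 50.3 kb away, had -0.09.

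The pairs that were lower in KO had limma adjusted p-values of 0.239 to 0.374 for the member. A_55_P2114557 had -3.76, -4.58 and -3.27 in WT and -7.12, -5.10 and -5.81 in KO (-2.14, SE 0.59, limma adjusted p = 0.285), 2.15 kb from Galr3, a galanin receptor, with -1.13 (SE 0.41). A_55_P2150328 lay 1.23 kb from the kinase gene Stk32b on the opposite strand and differed by -1.65 (SE 0.46) beside -1.91 (SE 0.72). A_55_P2114557 and the Stk32b probe were each well above background on 3 of 6 KO arrays, and A_55_P2150328 on 5 of 6. Their fitted differences rest in part on KO values not well above background. A_55_P2145084 lay 3.85 kb from Dclk3, a doublecortin-like kinase, and differed by -1.39 (SE 0.47) beside -1.72 (SE 0.33). A_55_P2141035 shares 58 bases with the interval probe that overlaps it, and both were well above background on 1 of 6 KO arrays only. Their fitted differences, both -1.65, therefore rest on replaced KO values, and that of the member was -0.33 after normexp correction. For each of these 4 members all KO samples lay below all WT samples.

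Another 3 close pairs with a gene symbol were also chosen after their values were seen. A_52_P423810, 0.261 kb from the metallothionein gene Mt1, had 1.85, 1.76 and 2.29 in WT and 3.52, 3.33 and 4.07 in KO (1.67, SE 0.25, limma adjusted p = 0.108), beside 1.04 (SE 0.15) for Mt1. A_55_P2401403, 4.62 kb from Rel, an NF-kappaB subunit, differed by 0.94 (SE 0.22) beside 1.12 (SE 0.27). A_55_P1965594, 0.427 kb from Gpc6, a glypican, on the opposite strand, differed by 0.90 (SE 0.25) beside a difference of 0.997 (SE 0.32).

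Whether the member closest to the targeted gene follows it cannot be told, since the gene itself hardly moved and the member was dim in WT. Both Bmi1 probes were well above background on all arrays and differed little: 0.10 (SE 0.13) and 0.21 (SE 0.14), with the second at -0.30, -0.50 and -0.33 in WT and 0.00, -0.31 and -0.20 in KO. Which part of Bmi1 the KO lacks was not stated, so these probes check nothing about the labels. A_55_P2023627, 1.10 kb away on the opposite strand, had -5.59, -8.33 and -8.19 in WT and -3.84, -6.01 and -4.31 in KO. The groups overlapped, 1 of 3 WT and 5 of 6 KO arrays were well above background, and the difference of 2.65 (SE 0.91) did not pass the test (limma adjusted p = 0.384).
Cdkn2a, the Polycomb-silenced gene of p16 and p19Arf, has no member close by. One of its probes rose by 3.28 (SE 0.22, limma adjusted p = 0.0207), and the other was well above background on no WT array and 1 KO array, while the nearest member, A_66_P106905 at 318 kb, differed by 0.03 (SE 0.30).

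The other called genes could not be set against a close measured member, and the members named here lie 10.3 kb or more away. Of the 18 named probes that passed the limma test, only that of Foxf1 had a measured member under 10 kb. Zic1, a zinc finger factor of neural tube and somites, rose by 3.44 with a member 10.3 kb away at -0.08. Hoxd13, a posterior limb Hox gene, rose by 5.47 with a member 15.6 kb away at 0.06, which lies 445 bases from Evx2. Tfap2a, a neural crest factor, rose by 6.45 with a member 27.3 kb away at -0.13. Gldn, the gliomedin gene, rose by 1.69, and the member closest to it, at 318 kb, had a difference of 1.61. Each of these members was looked up after the calls were known.

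Few members lie under 10 kb from genes of the pathway and marker lists. Near developmental transcription factors, 6 of 10 were measured, 3 were higher and 3 lower in KO, their median was 0.18, and only the member at Foxf1 had an unadjusted p under 0.05. Both members at Foxd3, a neural crest factor whose own difference was 1.55, gave -0.07 and 0.38. The member at Gata3, with 1.58 for the gene, gave -0.37.
Near Hox genes 2 of 4 were higher and 2 lower (median -0.06). All 6 near imprinted genes were higher (median 0.30), none with an unadjusted p under 0.05. They were at Peg3 (0.37), H19 (0.29), Dio3 (0.10), Zim1 (0.26) and Rtl1 (0.48 and 0.31). Over all measured members 44.6% were higher, and of 45 measured imprinted genes 28 were (median 0.05). Near mitosis and replication genes all 4 were lower (median -0.26), from -1.06 at Kif23 to -0.02 at Kif11, and none had an unadjusted p under 0.05. Over all members 2047 of 3695 were lower. The members at Kif11 (-0.02) and Anln (-0.03) stayed level beside genes at -1.37 and -0.86. Near muscle genes 3 of 7 were higher (median -0.13), and A_55_P2412214, 3.31 kb from the slow myosin gene Myh7, differed by -0.43 (SE 0.15, limma adjusted p = 0.402) against 0.32 for Myh7. No list member was called.

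Some members matched another gene in sequence, and these followed the matched gene rather than the neighbour; the definition of a match was chosen after values were seen. A match was set at 40 or more identical bases in an ungapped alignment to a named probe, and 441 members (8.37%) had one. For 350 of them the match lay 100 kb or more away or on another chromosome, and 29 of these were to ribosomal protein genes, which have many processed copies in the genome. Simple repeats can meet this rule too. A_55_P2048650, which holds a long run of TG, matched a probe of Skint7 with 42 identical bases, and their differences were -0.07 and -0.05. How many matches rest on repeats was not counted. Over the 201 members with a distant match whose nearest named probe was measured too, r was 0.809 (rho 0.804) with the matched probe and 87.6% had the same direction. With the nearest named probe, r was 0.061 (rho -0.01) and the share 52.2%. Over all 285 distant matches measured on both sides r was 0.596 (rho 0.746), and 0.451 without the 3 members with the largest differences; 270 of the 285 pairs differed by less than 0.2 from each other. Measured members with a distant match were bright, with a median level of 3.35 as compared to -2.36 without a match. In the highest bin of signal the SD of members' differences was only 0.229. Bright probes can thus lie within 0.2 of each other without shared sequence, and this count does not show that members followed the match.

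**Figure D5:**
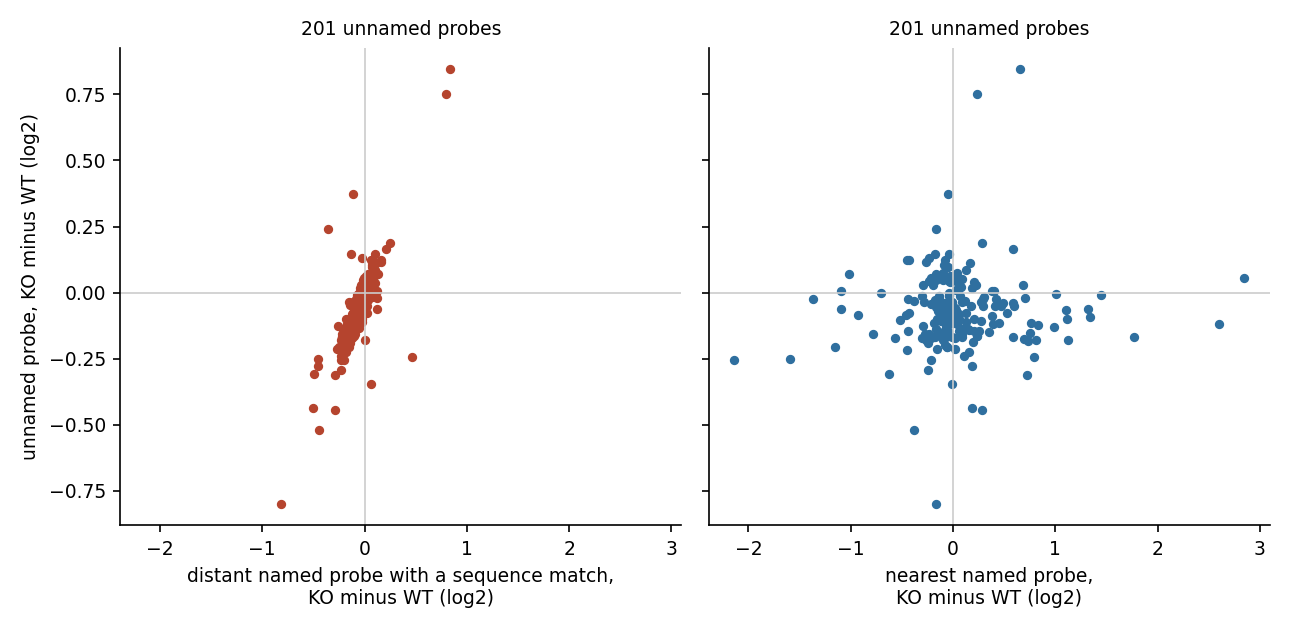
KO minus WT log2 difference of 201 unnamed probes against that of the distant named probe with matching sequence (left) and that of the nearest named probe (right). Points follow a rising line on the left (r 0.809) and show no such line on the right (r 0.061).

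The matches shown above give examples, chosen after their values were seen. A_55_P2086835 on chromosome 19 shares 55 bases with the probe of Ldhb, lactate dehydrogenase B, on chromosome 6. It had -0.38, -0.54 and -0.59 in WT and 0.25, 0.12 and 0.37 in KO (0.75, SE 0.13, limma adjusted p = 0.142), and Ldhb had -0.19, -0.37 and -0.51 in WT and 0.45, 0.26 and 0.60 in KO (0.80, SE 0.16). Its nearest named probe, of Cemip2, differed by 0.23.
A_55_P2002460 shares 45 bases with Nid1, the basement membrane protein nidogen, whose probe lies farther along chromosome 13. The differences were 0.84 (SE 0.14) and 0.83 (SE 0.14). Its nearest named probe, an interval 0.427 kb away, differed by 0.66 (SE 0.31), also without overlap of the groups, so this member does not separate match from neighbour. The other 2 share sequence with genes of dividing cells: A_55_P2024391 matched Pbk, a mitotic kinase, with 3 differing bases (-0.80 and -0.81), and A_55_P2071846 matched Hmgb2, with 2 differing bases (-0.69 and -0.73). In both of these pairs the groups overlapped, and KO sample 3 was the lowest on either probe, as it was for the mitosis and replication genes.

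Leaving out the members with a match changed the relation to the neighbour little. The remaining 2708 pairs gave an r of 0.339 and 59.3% with the same direction, and under 1 kb 358 pairs gave 0.437 and 66.8%. Among pairs of unnamed probes that neighbour each other, 60 pairs under 1 kb had an r of -0.02 (rho 0.243) and 66.7% with the same direction, 144 pairs at 1 to 10 kb had an r of 0.377 and 59.0%, and 576 pairs at 10 to 100 kb 0.126 and 54.7%.

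The 3 brightest members carry repeated sequence. Capitals mark runs of TG.
A_55_P2048650, chr9:64659886-64659945, plus strand: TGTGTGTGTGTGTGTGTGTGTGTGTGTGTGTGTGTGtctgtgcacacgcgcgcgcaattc
A_55_P2142116, chr2:116802050-116802109, plus strand: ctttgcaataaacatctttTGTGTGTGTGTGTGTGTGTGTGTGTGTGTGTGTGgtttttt
A_55_P2041121, chr6:47721993-47722052, minus strand: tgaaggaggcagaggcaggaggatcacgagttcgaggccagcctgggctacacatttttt
The first holds 18 TG repeats and the second 17, while the third resembles the B1 short interspersed repeat of rodents. Their differences were -0.07 (SE 0.12), -0.08 (SE 0.12) and -0.09 (SE 0.14), with overlapping groups. At least 8 TG repeats on either strand, written TGTGTGTGTGTGTGTG, occurred in 11 members (0.209%) and in 0.189% of all located probes. All 11 were measured, with a median difference of -0.07, and none had an unadjusted p under 0.05.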

How the data were processed

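The authors deposited the scanner output of 9 Agilent arrays of 1 colour, as linear spot intensity. Feature Extraction, named in the file headers, subtracted background and replaced dim values by a positive surrogate. They also deposited a table of processed values, log2 by its range, with a median of 7.806; how it was scaled or centred was not stated, and it served as an alternative. Strand was taken from the order of the coordinates, which matched RefSeq for 99.4% of probes with a symbol. Names were updated through RefSeq's table for GRCm38 (26294 probes by accession, 2049 by symbol, 355 by synonym).

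Here, log2 of the processed signal minus each array's 75th percentile was used. Outlier spots were left out, repeat spots averaged and 35 empty values filled with the probe's mean over other arrays. KO replicates 1 and 4, 2 and 5, and 3 and 6 were averaged. Probes well above background on at least 3 arrays (42981) were tested in R 4.3.3 by limma 3.58.1 (lmFit, eBayes), and p-values were adjusted over all of them by Benjamini-Hochberg. The fit had 4 residual degrees of freedom, to which the prior added 1.99. The fit and neighbour search were tested on simulated data. Sequences were compared with BLAST 2.17.0 (ungapped, word size 16), and tables and figures were made in Python 3.11.15 (pandas 2.3.3, matplotlib 3.10.9).

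The text names all called members, the 5 next by p in each direction, the 10 leading close pairs with equal direction (and up to 5 opposite), members near list genes with an unadjusted p under 0.05, those nearest Bmi1 and Cdkn2a, and the 3 brightest. Members, lists and tests were chosen with earlier results of these data known. Alternatives covered scaling, background correction, filter, slide, array averaging, replicate numbers, samples left out and the definition of the neighbour. The replicate numbers shared by WT and KO did not pair the samples (r of deviations -0.03, 0.02 and 0.02).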

Additional observations from a re-analysis of the deposited data

How the results depend on the processing

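With 3 samples a group, the count of called members was the least stable result. It was 3, and 2 after quantile normalization or with no filter, 23 after normexp correction, 16 with the deposited table of processed values, 5 among probes well above background on all arrays, 1 with the slide as a block, 0 within slide 1, 109 with all arrays as separate samples, 45 with the sample as a random block and 0 to 3 with 1 sample or array left out. Over all probes the same settings gave 24, 16, 282, 208, 62, 1, 0, 1639 and 610 calls beside 21. Counting arrays of the same sample as separate narrows the spread by construction, and the normexp offset shrinks differences near background; the cause of the other shifts was not tested. Nothing in the labels says that shared replicate numbers pair the samples, and with the replicate block 0 members were called (306 with an unadjusted p under 0.05); the median and the correlation were the same.

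For the 5 members named with a bound beyond the called ones (near Foxf1, Irx2, Clec9a, Pdgfra and Tas2r143), all not well above background in WT, differences were 0.418 to 1.08 with the deposited table, as compared to 1.63 to 3.46 in the report. At Foxf1, Irx2 and Pdgfra the differences with the deposited table were below the bounds given above. Those bounds hold on the scale of the report only. The median difference moved by less than the spread between KO samples everywhere, from -0.06 to 0.01 with 1 sample or array left out, and turned positive only without KO sample 2. The correlation of probe and neighbour (0.334) was 0.404 after normexp correction and with the deposited table, 0.213 with no filter, 0.401 with the stricter filter, 0.220 within slide 2, 0.277 with the nearest measured probe, and 0.292 to 0.348 with 1 sample or array left out. Among alternatives chosen after seeing the data, it was 0.404 for pairs under 10 kb and 0.785 with the best sequence match as partner. The share with equal direction (59.4%) was 55.9% with no filter, 56.2% within slide 2, 65.2% under 10 kb, 84.6% with the sequence match and 57.9% to 60% with 1 sample or array left out. The cause of these shifts was not tested.

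Among values of single members under alternatives, 507 kept direction and side of the threshold, 65 passed it only there, 32 no longer passed it and 13 changed direction, all of the latter in 4 members whose difference was within 0.1 of 0. A_66_P106905 was -0.086 after quantile normalization, -0.0542 after normexp, -0.0318 with the deposited table, -0.0273 without KO replicate 1, and -0.237 to 0.325 with 1 sample left out. A_55_P2048650 was 0.00747 after quantile normalization, 0.0138 with the deposited table and 0.0185 within slide 2. A_55_P2142116 was 0.0114 after quantile normalization, and A_55_P2041121 was 0.00573 there and 0.048 within slide 2.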
